A study of Mus musculus with 11 samples.

Results

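The genes described here are 10 genes of the major histocompatibility complex (MHC) class I presentation pathway, the light chain B2m, the heavy chains H2-K1, H2-D1, H2-T23 and H2-Q7, the transporter subunits Tap1 and Tap2, tapasin (Tapbp) and the immunoproteasome subunits Psmb8 and Psmb9. They were chosen by name and matched by gene symbol, and all 10 were found among the 25827 genes of the deposited tables. In every library, UMIs (unique molecular identifiers, 1 for each captured RNA molecule) were summed per gene over the nuclei of each cell class, and levels are given as CPM, the gene's UMIs scaled to the total of that class in that library. The light chain, the 4 heavy chains and Tap1 are on a list that the study chose on these same samples, so the list is not independent evidence of its direction.

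The study addressed which cells of the central nervous system respond to interleukin-12 during experimental autoimmune encephalomyelitis (EAE). This mouse model of multiple sclerosis was induced by immunization with a myelin oligodendrocyte glycoprotein peptide in complete Freund's adjuvant plus pertussis toxin. All mice were adult males of 8 to 12 weeks and carried 2 floxed alleles of Il12rb2, the gene of a receptor subunit for this cytokine. The controls were Il12rb2fl/fl mice without Cre (fl). NestinCre/+Il12rb2fl/fl mice (NestinCre) carried in addition a Cre transgene under the Nestin promoter, which is active in neural precursors. Neurons, oligodendrocytes and astrocytes descend from such precursors, and microglia and blood-derived cells do not. Single nuclei were sequenced from pooled cerebellum, brainstem and cervical spinal cord at day 10 after immunization (fl EAE, n = 4, and NestinCre EAE, n = 4). Mice that were not immunized gave 2 fl naive libraries and 1 NestinCre naive library.

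MHC class I molecules show fragments of a cell's own proteins to CD8+ T cells. The proteasome cuts proteins into peptides, and under interferon its catalytic subunits are exchanged for those of the immunoproteasome, Psmb8 and Psmb9 among them. The transporter Tap1-Tap2 carries the peptides into the endoplasmic reticulum, where tapasin (Tapbp) helps to load them onto a heavy chain that is paired with the light chain B2m. H2-K1 and H2-D1 encode classical heavy chains, and H2-Q7 and H2-T23 encode non-classical ones. Neurons are known for low resting levels of this pathway, microglia for higher ones, and the transcription factor Irf1 and the coactivator Nlrc5 are known to raise its transcription.

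All members but B2m lie in the MHC region of chromosome 17. On GRCm39 with the GENCODE vM39 annotation, H2-K1 (ENSMUSG00000061232) spans chr17:34214987-34219321 on the minus strand, H2-D1 (ENSMUSG00000073411) chr17:35481691-35486475, H2-Q7 (ENSMUSG00000060550) chr17:35658131-35662749 and H2-T23 (ENSMUSG00000067212) chr17:36340229-36345571 on the minus strand. Psmb9 (ENSMUSG00000096727, chr17:34400960-34406738, minus strand) and Tap1 (ENSMUSG00000037321, chr17:34405996-34416199) overlap head to head, and Psmb8 (ENSMUSG00000024338, chr17:34416690-34420428) and Tap2 (ENSMUSG00000024339, chr17:34422501-34435829) follow directly. Tapbp (ENSMUSG00000024308) spans chr17:34134873-34148267 and shares a stretch with Zbtb22 on the same strand. B2m (ENSMUSG00000060802) lies at chr2:121977957-121983594. H2-Q7 has near-identical neighbours, so its reads may be split between copies, and how the counting used strand is not given in the sources used here, so reads of the overlapping Tap1 and Psmb9 ends cannot be told apart with certainty. The same limit holds for every other member, since each overlaps an annotated gene on the other strand, H2-D1 with 5430410E06Rik and B2m with Patl2 among them.

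The 250 bases before the RefSeq start were read for the 9 members that the RefSeq table (build GRCm38.p6) holds, all but Tap2, and located on GRCm39 by exact match. In granule cells H2-D1 changed by a smaller fold than B2m and H2-K1. The windows of B2m, H2-K1, H2-D1 and H2-Q7 are shown because they share an arrangement of motifs. That of Tap1 is shown because 225 of its bases are also the window of Psmb9 on the other strand. Capitals mark every match, on either strand, to 5 motifs, and overlapping matches run together. The motifs were the interferon-stimulated response element (GAAA, 2 bases of any kind, GAAA), the gamma-activated site (TTCNNNGAA), the NF-kappaB site (GGG, 5 bases of any kind, CC), the CRE core of the X2 box (TGACG) and the Y box (ATTGG).
B2m, chr2:121977918-121978167, plus strand: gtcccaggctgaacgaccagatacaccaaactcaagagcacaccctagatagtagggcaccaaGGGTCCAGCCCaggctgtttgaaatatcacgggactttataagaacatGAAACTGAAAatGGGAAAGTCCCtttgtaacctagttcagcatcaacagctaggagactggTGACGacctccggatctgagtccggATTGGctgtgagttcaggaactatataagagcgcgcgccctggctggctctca
H2-K1, chr17:34219322-34219571, minus strand: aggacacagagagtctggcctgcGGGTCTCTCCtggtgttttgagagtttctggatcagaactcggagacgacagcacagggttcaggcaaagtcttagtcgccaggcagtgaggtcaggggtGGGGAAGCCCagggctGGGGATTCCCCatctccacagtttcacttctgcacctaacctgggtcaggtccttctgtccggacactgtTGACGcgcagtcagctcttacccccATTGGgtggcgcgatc
H2-D1, chr17:35481820-35482069, plus strand: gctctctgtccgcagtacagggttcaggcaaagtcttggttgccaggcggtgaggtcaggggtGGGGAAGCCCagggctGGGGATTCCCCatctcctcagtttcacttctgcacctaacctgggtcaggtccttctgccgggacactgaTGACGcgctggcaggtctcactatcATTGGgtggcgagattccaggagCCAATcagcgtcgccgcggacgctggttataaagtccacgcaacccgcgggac
H2-Q7, chr17:35657881-35658130, plus strand: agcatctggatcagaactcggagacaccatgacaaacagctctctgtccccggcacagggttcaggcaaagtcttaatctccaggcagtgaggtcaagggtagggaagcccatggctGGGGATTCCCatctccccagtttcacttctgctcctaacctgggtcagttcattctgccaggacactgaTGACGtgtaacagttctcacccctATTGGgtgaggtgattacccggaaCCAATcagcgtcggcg
Tap1, chr17:34406280-34406529, plus strand: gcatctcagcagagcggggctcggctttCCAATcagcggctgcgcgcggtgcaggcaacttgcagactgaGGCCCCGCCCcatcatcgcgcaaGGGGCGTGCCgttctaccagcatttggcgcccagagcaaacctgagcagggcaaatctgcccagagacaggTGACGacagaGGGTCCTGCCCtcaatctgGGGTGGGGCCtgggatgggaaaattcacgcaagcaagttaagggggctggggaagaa

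In B2m, H2-K1 and H2-D1 the first base of TGACG lay 25 bases before the first base of ATTGG, and in H2-Q7 it lay 24 bases before. A spacing of 24 to 25 bases occurred in 36 of 27025 promoters (0.133%), a description only, since the spacing was taken from these 4 members. TGACG was in 6 of the 9 windows (B2m, H2-K1, H2-D1, H2-Q7, Tap1 and Psmb9) against 17.9% of all promoters, ATTGG in 8 of 9 (all but Psmb8) against 34.5%, and the NF-kappaB site in the same 6 as TGACG against 45.4%. The string used for the interferon-stimulated response element was in B2m and H2-T23 (3.04% of all promoters) and TTCNNNGAA in Psmb8 alone (7.18%). Looser forms of this element were not searched, so a window without the string may still hold one. The windows of H2-K1, H2-D1 and H2-Q7 share agtttcacttct, close to the string on the other strand but not a match. Of the 9 windows, 7 (all but those of H2-K1 and H2-Q7) lie partly or wholly inside the GENCODE spans of their own genes, and the H2-Q7 window matched the genome at 2 places. The matches of Tap1 and Psmb9 are not independent: the TGACG site, the ATTGG site and 5 NF-kappaB matches lie in the stretch that both windows share and were counted for each. These matches are a description of the letters in the windows, not of binding.

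A total of 159202 nuclei were kept (11624 to 18486 per library) with a median of 2375 UMIs, from libraries of 40761007 to 86063464 UMIs. From these nuclei, 22 cell classes were named from markers with the members and other interferon-responsive genes left out of the clustering. The members had 84776 UMIs in all, 2454 to 27137 per library, and immune classes held 2.36% of the nuclei and 13.9% of these UMIs. Any pair of libraries shared at most 0.692% of barcodes. Il12rb2 itself, summed over the 11 neural classes, stood at 11.2 to 16.9 CPM in fl EAE and 8.11 to 16.9 CPM in NestinCre EAE, a count over the whole gene that does not test loss of the floxed part. Among the fl EAE libraries, fl EAE 3 stood apart with the highest summed level of the members in granule cells, mature oligodendrocytes and molecular layer interneurons. NestinCre EAE 4 and fl EAE 4 were sequenced in run 2, and replicates 1 to 3 of both genotypes in run 1.

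Levels of the 10 genes together differed between cell classes in all groups. In fl EAE, the order was border-associated macrophages (987.2 ± 234.4 CPM, SD, n = 4), microglia (511.4 ± 206.6 CPM), leptomeningeal cells or fibroblasts (224.0 ± 69.8 CPM), Purkinje cells (175.1 ± 25.1 CPM) and astrocytes (110.9 ± 40.2 CPM). The macrophages and the microglia each lay above the next class in every library, and the other neighbours overlapped. Granule cells stood at 68.5 ± 19.3 CPM, mature oligodendrocytes at 62.3 ± 43.6 CPM, excitatory neurons at 43.7 ± 5.82 CPM and Golgi cells, the lowest, at 38.4 ± 12.6 CPM. In NestinCre EAE, border-associated macrophages (1738.9 ± 447.1 CPM) and microglia (1715.3 ± 418.2 CPM) overlapped, and mature oligodendrocytes (650.3 ± 367.1 CPM) and oligodendrocyte progenitor cells (626.8 ± 261.5 CPM) followed the leptomeningeal cells (1115.3 ± 196.3 CPM). The naive libraries lay at 52.1, 77.5 and 72.8 CPM in granule cells, 35.2, 57.7 and 51.2 CPM in mature oligodendrocytes and 392.7, 370.4 and 384.1 CPM in microglia (fl naive 2, fl naive 3, NestinCre naive 2). All 9 values were within the range of fl EAE.

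**Figure D1:**
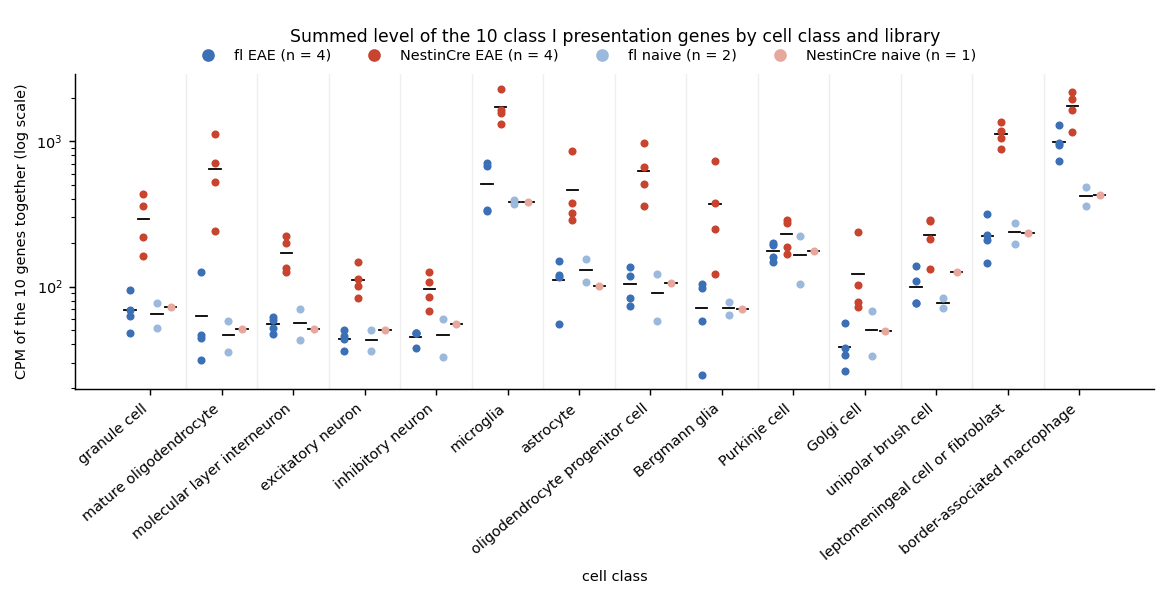
Summed level of the 10 genes (CPM, log scale) in the 14 cell classes with at least 10 nuclei in every library, with 1 point a library and a black line at the group mean. In granule cells the NestinCre EAE libraries sit between 162.1 and 432.8 CPM and the fl EAE libraries between 47.9 and 94.2 CPM, while in Purkinje cells the groups overlap.

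H2-D1 departed from this order. In fl EAE its level in Purkinje cells, the output neurons of the cerebellar cortex (159.2 ± 30.4 CPM), came before that in microglia (90.3 ± 49.9 CPM), whose libraries overlapped with it. Border-associated macrophages (272.6 ± 116.7 CPM) lay above it in every library. Its Purkinje level was 189.2, 181.0, 138.4 and 128.2 CPM in fl EAE, 184.9, 236.6, 134.8 and 156.2 CPM in NestinCre EAE and 102.3, 207.4 and 147.1 CPM in the naive libraries. The next highest value of a member in Purkinje cells was 26 CPM, for H2-K1 in NestinCre EAE 1, so H2-D1 gave most of the member UMIs of this class in every library. Reads of 5430410E06Rik, on the other strand at H2-D1, cannot be told apart from it here. B2m, in contrast, was lowest in Purkinje cells of all 14 classes, at 1.89 ± 1.28 CPM in fl EAE.

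To ask how the genotypes differed at the same day after immunization, NestinCre EAE was compared with fl EAE in each of 14 classes with edgeR's quasi-likelihood test. The sequencing run was in the model, and the Benjamini-Hochberg adjustment was over all genes of a class. Of 140 pairs of a member and a class, 61 had enough UMIs to be tested, and 38 were higher in NestinCre EAE and 0 lower at an adjusted p under 0.05. Over all genes of the same classes, 0.7% of tests were called higher and 0.124% lower. Of the 61 tested pairs, 9 had under 10 UMIs in every fl EAE library and passed the filter through the NestinCre EAE libraries, so their calls are given as a description. Without them, 32 of 52 pairs were called. The 6 of them that were called were H2-Q7 in mature oligodendrocytes and microglia, H2-K1 in molecular layer interneurons and oligodendrocyte progenitor cells, Psmb8 in molecular layer interneurons and Tap1 in astrocytes. The other 3 were Psmb9 in excitatory neurons and B2m and H2-D1 in border-associated macrophages. In the last, the mean levels were 272.6 CPM in fl EAE and 292.6 CPM in NestinCre EAE. The class held 27688 to 79491 UMIs in the NestinCre EAE libraries and 20162 to 36162 in those of fl EAE, ranges that overlapped. The limit of 10 UMIs does not find every pair of this kind. Tap1, H2-Q7 and Psmb9 in granule cells, Tap2 in mature oligodendrocytes and Tap1 in excitatory neurons were low in all or most fl EAE libraries. The fl EAE means of H2-K1 in excitatory and inhibitory neurons (1.55 and 1.04 CPM) were also under what the filter asks. So were those of B2m and H2-D1 in astrocytes, B2m in oligodendrocyte progenitor cells and Psmb8 in microglia. All these pairs too needed the NestinCre EAE libraries to pass, so the 32 of 52 still holds such pairs. Other pairs may be of this kind. Without a filter or a model, the 4 NestinCre EAE values lay above the 4 fl EAE values in 85 of the 140 pairs and below them in 0. The same was true of 3.54% of all genes in granule cells, 3.76% in mature oligodendrocytes, 4.4% in microglia and at least 1.05% in the other classes.

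By gene, B2m and H2-K1 rose in 8 of the 9 classes in which each could be tested, H2-D1 in 6 of 11, H2-Q7 in 3 of 3, and H2-T23 in 2 of 5. Tap1 rose in 4 of 5 classes, Tap2 in 3 of 5, Psmb8 and Psmb9 in 2 of 4 each, and Tapbp in 0 of 6. These counts include the 6 calls above, 2 each of H2-K1 and H2-Q7 and 1 each of Tap1 and Psmb8. The tapasin differences were all positive, from 0.29 to 1.94 on the log2 scale, with 4 at an unadjusted p under 0.05 and 2 called by DESeq2. In 5 of its 6 classes Tapbp had less change than any other member tested there. In molecular layer interneurons this was 0.86 against 0.87 for H2-D1. Several of the other members passed the filter through the NestinCre EAE libraries and had to differ to be tested, so this order is a description.

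**Figure D2:**
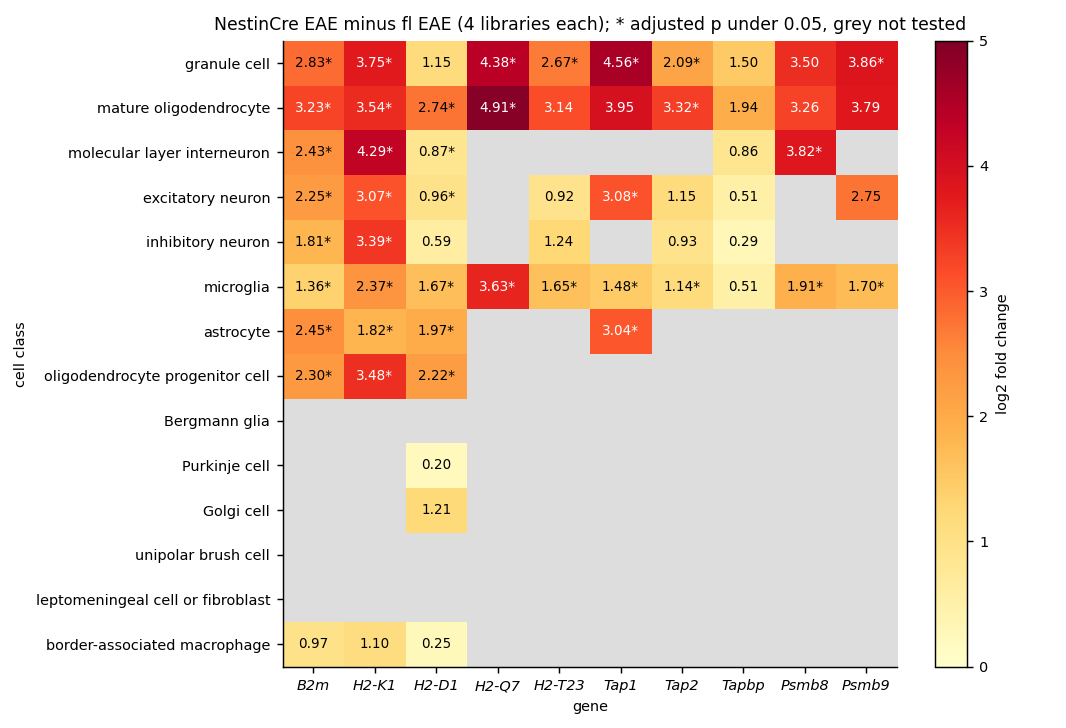
Log2 fold change of each member in each class, NestinCre EAE minus fl EAE (n = 4 each), with an asterisk at an adjusted p under 0.05 and grey where too few UMIs were present to test. The changes run from 0.20 (H2-D1 in Purkinje cells) to 4.91 (H2-Q7 in mature oligodendrocytes), a gene that entered the test through its high group. Every tested value is positive, and at least 9 of the 61 passed the filter only through the NestinCre EAE libraries.

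In granule cells, the small excitatory neurons that made up 67.2% of nuclei (107039 nuclei), 7 of the 10 members rose, with a median log2 fold change of 3.16 against -0.01 over the 15732 genes tested, of which 1.2% were called higher. B2m, the light chain common to all class I molecules, stood at 9.11, 9.05, 20.5 and 5.66 CPM in fl EAE and at 100.5, 38.5, 60.6 and 108.6 CPM in NestinCre EAE (log2 fold change 2.83 ± 0.44 SE, adjusted p = 0.0218). The heavy chain H2-K1 went from 1.93, 1.88, 7.99 and 1.70 CPM to 68.1, 20.3, 28.1 and 57.4 CPM (3.75 ± 0.58, adjusted p = 0.0221). In both genes fl EAE 3 was the highest fl library and NestinCre EAE 2 the lowest NestinCre library, and the groups did not overlap.

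H2-D1 changed by a smaller fold than H2-K1. It was 39.2, 43.3, 40.7 and 28.9 CPM in granule cells of fl EAE and 109.9, 60.2, 59.8 and 109.1 CPM in NestinCre EAE, again without overlap, but the change was 1.15 ± 0.23 and the adjusted p 0.0501. The 95% interval of the H2-D1 change (0.70 to 1.60) lay below that of H2-K1 (2.61 to 4.88), so the fold changes of these classical heavy chains differed in granule cells. The non-classical H2-Q7 was nearly undetected in fl EAE (0.0762 to 0.789 CPM) and stood at 3.19 to 7.12 CPM in NestinCre EAE (4.38 ± 0.56, adjusted p = 0.0157). H2-T23, which encodes the Qa-1 heavy chain, rose from 1.29 to 4.46 CPM in fl EAE to 6.14 to 26.1 CPM in NestinCre EAE (2.67 ± 0.51, adjusted p = 0.043).

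The peptide supply genes showed the same separation of groups in granule cells. Tap1 was 0.297, 0.246, 1.49 and 0.203 CPM in fl EAE and 25.8, 4.47, 9.64 and 9.13 CPM in NestinCre EAE (4.56 ± 0.69, adjusted p = 0.0211). Its partner Tap2 rose from 1.70 to 2.69 CPM to 4.96 to 17.3 CPM (2.09 ± 0.39, adjusted p = 0.0411). The immunoproteasome subunit Psmb9 rose from 0.123 to 1.44 CPM to 3.15 to 11.8 CPM (3.86 ± 0.68, adjusted p = 0.032). Psmb8 (3.50 ± 0.74, adjusted p = 0.0628) and Tapbp (1.5 ± 0.35, adjusted p = 0.0939) did not pass the threshold. Their NestinCre EAE libraries also lay above every fl EAE library, at 6.34 to 24.5 against 0.355 to 4.09 CPM for Psmb8 and 14.8 to 50.1 against 7.69 to 10.4 CPM for Tapbp. Leukocyte tracer genes also separated the groups in granule cells (17 of 18), and their part in these differences was not tested. The granule cell calls depended on single libraries. Of the 10 members, 0 were called without fl EAE 1, without fl EAE 2 or without NestinCre EAE 3, 4 without NestinCre EAE 1, 8 without fl EAE 3 and 9 without NestinCre EAE 2. Within run 1 alone, 5 were called, and with the replicate number as a block, 2. No share over all genes is given for these fits.

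**Figure D3:**
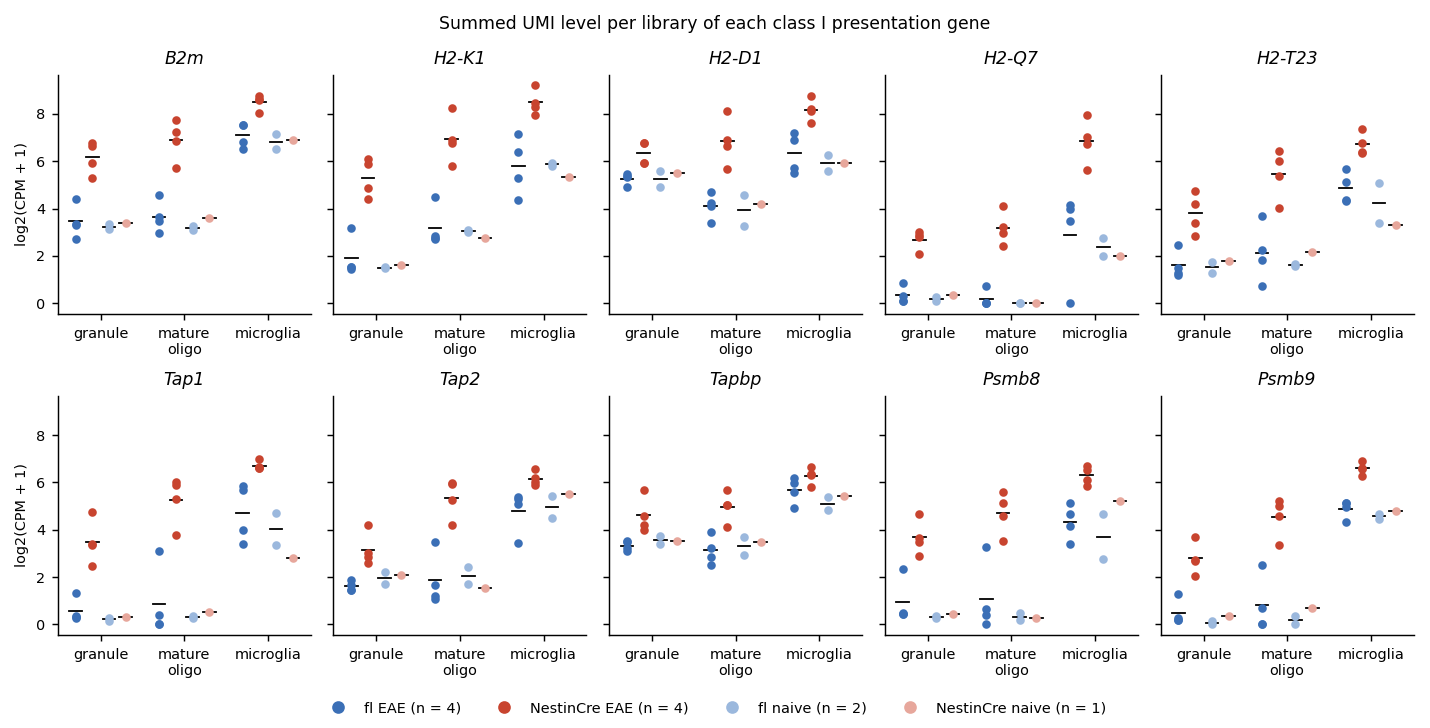
Level of each member, log2(CPM + 1), in granule cells, mature oligodendrocytes and microglia, with 1 point a library and a black line at the group mean. All 10 members separate NestinCre EAE from fl EAE in granule cells and mature oligodendrocytes, and the high fl EAE point in Tap1, Tap2, Psmb8 and Psmb9 of mature oligodendrocytes is fl EAE 3.

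In mature oligodendrocytes, the myelin-forming cells, 5 members rose (B2m, H2-K1, H2-D1, H2-Q7 and Tap2) and all 10 had non-overlapping groups, with a median log2 fold change of 3.29 against 0.02 over all 12248 genes tested, of which 0.874% were called higher. H2-D1 stood at 16.2, 18, 24.9 and 9.55 CPM in fl EAE and at 117.2, 50.5, 99.5 and 281.1 CPM in NestinCre EAE (2.74 ± 0.45, adjusted p = 0.0271), and here its interval (1.87 to 3.62) overlapped that of H2-K1 (2.51 to 4.58). B2m rose from 6.74 to 22.9 CPM to 51.3 to 213.7 CPM (3.23 ± 0.46, adjusted p = 0.0201) and H2-K1 from 5.58 to 21.3 CPM to 54.8 to 301.1 CPM (3.54 ± 0.53, adjusted p = 0.0212). In all 3 genes NestinCre EAE 4 was highest and NestinCre EAE 2 lowest of its group.

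H2-Q7 was at 0 in 3 of the 4 fl EAE libraries of mature oligodendrocytes, where a count of 0 allows a level of up to 0.954 CPM, and at 0.655 CPM in fl EAE 3. In NestinCre EAE it was at 6.82, 4.30, 8.26 and 16.1 CPM (4.91 ± 0.65, adjusted p = 0.0165). Tap2 was 1.27, 2.17, 10.3 and 1.12 CPM in fl EAE and 62.3, 17.4, 37.6 and 60.3 CPM in NestinCre EAE (3.32 ± 0.62, adjusted p = 0.0399). The other 5 members missed the threshold: Tap1 3.95 ± 0.83 (adjusted p = 0.0658), Psmb9 3.79 ± 0.76 (0.0508), Psmb8 3.26 ± 0.80 (0.119), H2-T23 3.14 ± 0.65 (0.06) and Tapbp 1.94 ± 0.38 (0.0503). For Tap1 the fl EAE libraries were at 0.318, 0, 7.70 and 0 CPM and the NestinCre EAE libraries at 58.8, 12.6, 38.3 and 63.3 CPM. In mature oligodendrocytes 0 of the 10 members were called without fl EAE 1, fl EAE 2, fl EAE 4, NestinCre EAE 1 or NestinCre EAE 4 and in run 1 alone. The count was 10 without fl EAE 3 or NestinCre EAE 2, 8 without NestinCre EAE 3, and 9 with the replicate block, with no share over all genes given for these fits. Of the 18 leukocyte tracers, 14 separated the groups in this class too, and their part in the differences was not tested.

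Microglia, the resident macrophages of the brain, are not targeted by the Cre, and 9 of the 10 members rose in them, with a median log2 fold change of 1.66 against 0.00 over 7667 genes, of which 4.16% were called higher. H2-Q7, tested through its high group (under 10 UMIs in every fl EAE library), was at 0, 14.8, 10.1 and 16.9 CPM in fl EAE and at 106.2, 49.1, 129.4 and 248.9 CPM in NestinCre EAE (3.63 ± 0.41, adjusted p = 1.91e-05). H2-K1 was 37.8, 19.7, 82.7 and 142.3 CPM against 317.2, 245.3, 355.4 and 590.0 CPM (2.37 ± 0.25, adjusted p = 1.16e-05). For both heavy chains the fl EAE libraries spread widely and still lay below every NestinCre EAE library.

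The other microglial changes were smaller. B2m rose by 1.36 ± 0.20 on the log2 scale (adjusted p = 0.000317), from 89.8 to 183.5 CPM to 261.7 to 428.0 CPM, and H2-D1 by 1.67 ± 0.23 (0.000161), from 44.3 to 145.7 CPM to 193.5 to 427.1 CPM. H2-T23 rose by 1.65 ± 0.28 (adjusted p = 0.00114), Tap1 by 1.48 ± 0.31 (0.00537), Tap2 by 1.14 ± 0.30 (0.0299), Psmb8 by 1.91 ± 0.31 (0.000651) and Psmb9 by 1.70 ± 0.25 (0.000304). Tapbp was 29.6 to 72.6 CPM in fl EAE and 55.4 to 98.1 CPM in NestinCre EAE, and these ranges overlapped (0.51 ± 0.27, adjusted p = 0.377). Unlike in granule cells and mature oligodendrocytes, 8 or 9 members were called whichever library was left out, with no share over all genes given. The call that was lost was Tap2, which held in 7 of 17 alternatives and missed the threshold in 7 of the 8 fits that left out a library (adjusted p = 0.052 to 0.0937). The nuclei were spread unevenly over 4 microglial subclusters. Subclusters 22 and 26 held 418 of 581 microglia of fl EAE (91 of 126, 91 of 111, 175 of 229 and 61 of 115 in fl EAE 1 to 4). They held 14 of 222, 56 of 185 and 60 of 245 in NestinCre EAE 1 to 3 and 313 of 453 in NestinCre EAE 4. In run 2 their share was thus higher in NestinCre EAE 4 than in fl EAE 4, the reverse of run 1. Within subclusters 22, 26 and 36 the summed level was 513.4, 421.1 and 566.2 CPM in fl EAE and 1886, 2051 and 1667 CPM in NestinCre EAE. The NestinCre EAE means of subclusters 22 and 26 are over 3 libraries, without NestinCre EAE 1 (9 and 5 nuclei), and NestinCre EAE 4 gave 172 of 229 and 141 of 214 of their nuclei. Subcluster 76, of 179 NestinCre EAE nuclei, held 6 fl EAE nuclei, and the members stood at 1363 CPM in its NestinCre EAE nuclei.

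Other neurons had fewer testable members. In molecular layer interneurons, inhibitory cells of the cerebellar cortex, 4 of 5 tested members rose against 0.19% of all genes. H2-K1 was 1.24, 0.725, 2.27 and 0.706 CPM in fl EAE and 32.0, 19.8, 13.9 and 27.9 CPM in NestinCre EAE (4.29 ± 0.37, adjusted p = 5.92e-05). B2m rose by 2.43 ± 0.29 (0.00116), Psmb8 by 3.82 ± 0.59 (0.00835) and H2-D1 by 0.87 ± 0.14 (0.0105). H2-K1 and Psmb8 had under 10 UMIs in every fl EAE library here and had to differ to be tested, so H2-K1 is not compared with H2-D1 in this class.

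In excitatory neurons 4 of 8 tested members rose against 0.204% of all genes. Tap1 was 0.170, 0.178, 1.05 and 0.229 CPM in fl EAE and 3.63, 3.92, 3.60 and 4.72 CPM in NestinCre EAE (3.08 ± 0.41, adjusted p = 0.0042). H2-K1 rose by 3.07 ± 0.34 (adjusted p = 0.00105), B2m by 2.25 ± 0.28 (0.0024) and H2-D1 by 0.96 ± 0.13 (0.00529). Inhibitory neurons had 2 of 6 tested members called, against 0.0774% of all genes: B2m (1.81 ± 0.20, adjusted p = 0.000518) and H2-K1 (3.39 ± 0.37, adjusted p = 0.000518), while H2-D1 did not pass (0.59 ± 0.15, adjusted p = 0.38). H2-K1 averaged 1.55 CPM in excitatory and 1.04 CPM in inhibitory neurons of fl EAE. With Tap1 in excitatory neurons, it passed the filter through the NestinCre EAE libraries, and these calls are a description. In Purkinje cells H2-D1 was the single member with enough UMIs to test, and its change was 0.20 ± 0.16 (adjusted p = 0.962, 95% interval -0.11 to 0.51), an interval below that of H2-D1 in granule cells. B2m in Purkinje cells, not tested, was 0 to 2.74 CPM in fl EAE and 8.01 to 23.4 CPM in NestinCre EAE.

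Among glia other than mature oligodendrocytes, 4 members were tested and called in astrocytes (0.619% of all genes called higher) and 3 in oligodendrocyte progenitor cells (0.665%). Tap1 in astrocytes and H2-K1 in progenitors were tested through their high group. B2m (mean 18.7 CPM in fl EAE) and H2-D1 (20.3 CPM) in astrocytes and B2m in progenitors (22.5 CPM) also needed the NestinCre EAE libraries to pass. The calls of these pairs are a description. In progenitors H2-K1 was 11.2, 9.66, 16.0 and 17.3 CPM in fl EAE and 171.9, 67.7, 131.1 and 252.8 CPM in NestinCre EAE (3.48 ± 0.31, adjusted p = 1.54e-08). H2-D1 rose by 2.22 ± 0.27 (2.61e-06) and B2m by 2.30 ± 0.32 (2.25e-05). H2-Q7 was at 0 in all 4 fl EAE libraries of the progenitors, which allows a level of up to 6.85 to 11.2 CPM, and at 45.4, 10.7, 19.9 and 75.0 CPM in NestinCre EAE, with too few UMIs for the test. Astrocytes had B2m at 22.2, 16.3, 28.0 and 8.12 CPM in fl EAE and 47.5, 58.3, 88.2 and 220.8 CPM in NestinCre EAE (2.45 ± 0.36, adjusted p = 0.000105). Tap1 rose by 3.04 ± 0.51 (0.000638), H2-D1 by 1.97 ± 0.45 (0.0247) and H2-K1 by 1.82 ± 0.31 (0.000638). NestinCre EAE 4 was the highest astrocyte library for each of these 4 genes. H2-K1 in astrocytes did not pass edgeR's test in run 1 alone (1.09, adjusted p = 0.109) or without fl EAE 4 (1.09, adjusted p = 0.0734) or NestinCre EAE 4 (1.10, adjusted p = 0.113). The H2-D1 call in astrocytes was lost in the same 3 fits (0.82, 0.83 and 0.83, adjusted p = 0.524, 0.471 and 0.521). It was also lost with the replicate block (1.95, adjusted p = 0.201), with doublets kept, without nuclei of 6000 or more UMIs and in DESeq2, and it held in 9 of 16 alternatives.

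Border-associated macrophages had 3 testable members, and none passed: B2m (0.97 ± 0.33, adjusted p = 0.258), H2-K1 (1.10 ± 0.42, 0.27) and H2-D1 (0.25 ± 0.39, 95% interval -0.51 to 1.01). They had 10 to 21 nuclei per library, 2 of the 3 members were at an unadjusted p under 0.05, DESeq2 called 0, and 0% of all genes were called higher. Bergmann glia (0.0763% of all genes called higher), unipolar brush cells (0%) and leptomeningeal cells (0.217%) had no testable member, and Golgi cells (0.0344%) had H2-D1 alone (1.21 ± 0.37, adjusted p = 0.519). All NestinCre EAE values lay above all fl EAE values for 4 of the 10 members in Bergmann glia (1.31% of all genes) and for 6 in leptomeningeal cells (1.32%). The summed level of the 10 genes in leptomeningeal cells was 146.2 to 315.3 CPM in fl EAE and 883.0 to 1349.4 CPM in NestinCre EAE. In T or NK cells, present in 5 to 90 nuclei per library and not tested, the summed level was 1181.8 to 1691.7 CPM in fl EAE and 2036.4 to 3293.2 CPM in NestinCre EAE.

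Because nuclei differed in depth, each was thinned to 1000 UMIs to compare the share with a UMI of any member. In granule cells the share was 6.81 ± 1.43% (SD, n = 4) in fl EAE, 25.8 ± 8.98% in NestinCre EAE and 6.83 ± 1.38% over the 3 naive libraries (14.7%, 44.0% and 15.1% without thinning). In mature oligodendrocytes it was 5.43 ± 2.72%, 39.4 ± 16.8% and 5.0 ± 1.15%, and in microglia 37.5 ± 11.2%, 78.6 ± 7.47% and 33.5 ± 3.0%. Nuclei shallower than 1000 UMIs were left out, 3228 of fl EAE and 3155 of NestinCre EAE in granule cells, 204 and 485 in mature oligodendrocytes, and 46 and 62 in microglia. Every class held some nuclei with a member UMI, and the lowest share in fl EAE was that of Golgi cells (4.40%).

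Nuclei with 3 or more member UMIs, unthinned, were 0.116% to 0.312% of granule cells in fl EAE, 0.0335% to 0.205% in the naive libraries and 13.6%, 0.664%, 2.07% and 5.77% in NestinCre EAE 1 to 4. In mature oligodendrocytes the fl EAE libraries had 0%, 0.0701%, 2.74% and 0.188%. The corresponding NestinCre EAE values were 24.7%, 4.21%, 15.4% and 39.7%. In fl EAE 3, these 65 oligodendrocyte nuclei of 2368 held 44.1% of the member UMIs of the class. In NestinCre EAE, the top 1% of granule nuclei held 6.82% to 8.68% of the class's member UMIs. The summed level was higher in NestinCre EAE in each of the 14 granule cell subclusters measured in both groups, for example 256.9 against 54.7 CPM in the subcluster with most nuclei and 550.8 against 141.1 CPM in the highest.

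**Figure D4:**
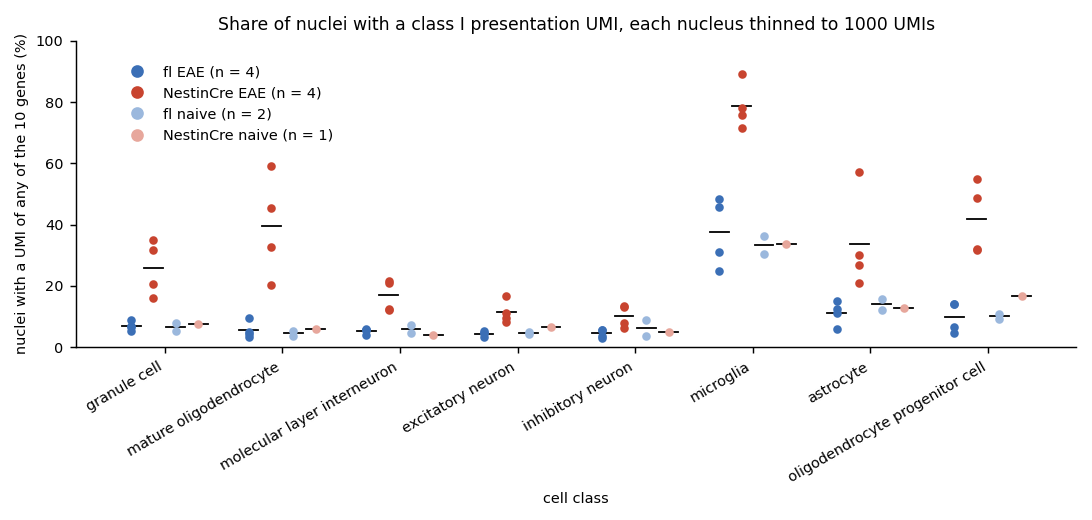
Percentage of nuclei with a UMI of any of the 10 genes after thinning each nucleus to 1000 UMIs, in the 8 classes with a called member, with 1 point a library and a black line at the group mean. NestinCre EAE lies between 15.9% and 34.9% in granule cells and between 20.2% and 59.2% in mature oligodendrocytes, above every fl EAE and naive library.

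Signs of leukocyte RNA were also higher in NestinCre EAE than in fl EAE, though not in every class. Infiltrating phagocytes, neutrophils and T or NK cells together made up 0.0883% to 0.283% of nuclei in fl EAE, 0.098% to 0.173% in naive and 3.30%, 1.56%, 2.46% and 0.568% in NestinCre EAE 1 to 4. A list of 18 leukocyte tracer genes, such as Ptprc, Csf1r and Lyz2, summed to 36.0 to 67.0 CPM in granule cells of fl EAE and 96.8 to 184.9 CPM in NestinCre EAE. In mature oligodendrocytes the sums were 123.3 to 141.7 and 194.6 to 336.7 CPM. By gene, 17 of the 18 tracers were higher in every NestinCre EAE library than in every fl EAE library in granule cells, 14 in mature oligodendrocytes, 7 in excitatory neurons and 4 in molecular layer interneurons, and 0 were lower. None was at 0 in either group in these classes. Lyz2, a lysozyme of phagocytes, was 2.77, 0.655, 8.82 and 2.72 CPM in granule cells of fl EAE and 50.1, 26.9, 45.1 and 11.6 CPM in NestinCre EAE. Of fl EAE, fl EAE 3 was highest for Lyz2, as it was for 8 of the 10 members (all but H2-D1 and Tapbp). NestinCre EAE 4, lowest of its group for Lyz2 and infiltrating nuclei, was highest for granule cell B2m and for the summed members in mature oligodendrocytes. NestinCre EAE 1, highest for Lyz2 and infiltrating nuclei, was highest for granule cell H2-K1 and Tap1. In excitatory neurons (135.9 to 150.3 against 138.0 to 192.9 CPM), inhibitory neurons and oligodendrocyte progenitor cells the summed tracers of the 2 groups overlapped, and their part in the differences was not tested.

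Within a library, the ratio of member to tracer UMIs differed between classes. Over the immune classes together it was 0.0510 to 0.0996 for fl EAE and 0.202 to 0.253 for NestinCre EAE. In granule cells it was 1.33 to 1.68 and 1.25 to 3.69, and in mature oligodendrocytes 0.255 to 0.896 and 1.04 to 5.74. When every nucleus with a tracer UMI was left out of all but the immune classes, 34 of 49 testable pairs were higher, against 0.728% of all tests in that setting. The 49 include pairs of microglia and border-associated macrophages, from which no nucleus was left out. The called pairs included 5 members in granule cells (0.847% of all genes called higher, with B2m 2.81, adjusted p = 0.0283, and H2-K1 3.69, adjusted p = 0.0285) and 9 in mature oligodendrocytes (1.16%). The part that leukocyte RNA not marked by these tracers has in the differences was not tested.

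**Figure D5:**
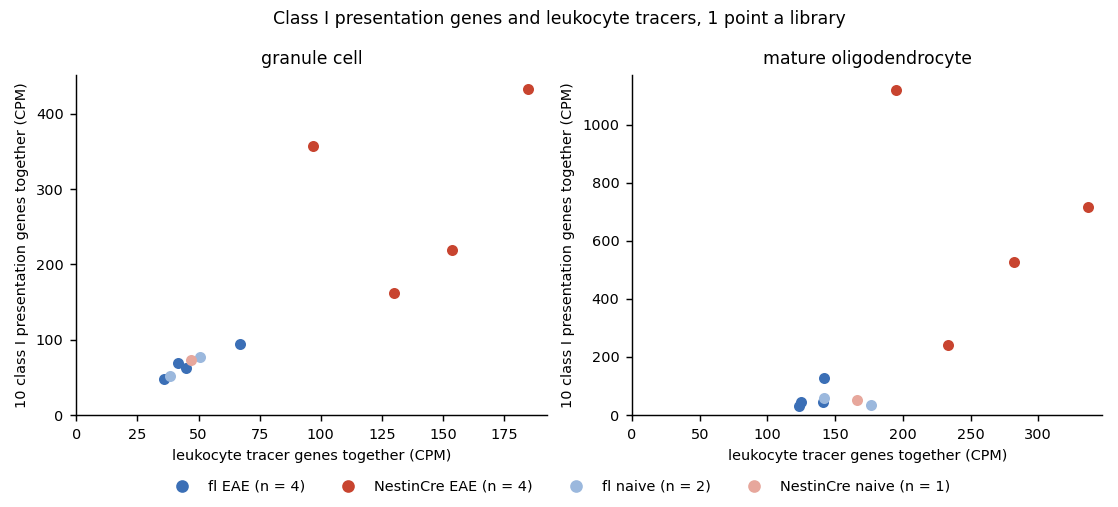
Summed level of the 10 genes against summed level of the 18 leukocyte tracers in CPM, in granule cells and mature oligodendrocytes, with 1 point a library. NestinCre EAE libraries are higher on both axes in both classes, and the highest member level in mature oligodendrocytes is 1117.7 CPM, in NestinCre EAE 4.

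The disease contrasts asked whether EAE itself moved the members within a genotype. With the run in the model, 100 of 140 pairs were tested and 0 were called in either genotype. Pairs at or near 0 in the naive libraries had no usable estimate (1 of 100 in fl mice, 11 of 100 in NestinCre mice), so directions are not counted. In fl mice, edgeR called 0.0221% of all tests higher and 0.025% lower at an adjusted p under 0.05. At an unadjusted p under 0.05, 7 member pairs were higher and 0 lower, with no share over all genes given at that threshold. DESeq2 called 0 member pairs. The lowest adjusted p was 0.299, for H2-D1 in inhibitory neurons. Only run 2 held EAE and naive libraries together, and the libraries of the other runs entered through the model. The fitted granule cell changes were 0.49 ± 0.81 for B2m (adjusted p = 0.891) and 0.76 ± 1.24 for H2-K1 (0.887). Within run 2 itself, fl EAE 4 lay below fl naive 2 for both genes, at 5.66 against 7.71 CPM for B2m and 1.70 against 1.89 CPM for H2-K1, the opposite direction to the fitted changes.

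In NestinCre mice, edgeR called 0.00221% of all tests higher and 0.00588% lower at an adjusted p under 0.05. At an unadjusted p under 0.05, 39 member pairs were higher and 0 lower, with no share over all genes given at that threshold. DESeq2 called 3 member pairs higher. The nearest to the threshold were in microglia, H2-T23 (5.72 ± 1.08, adjusted p = 0.0505) and H2-K1 (4.12 ± 0.81, adjusted p = 0.053). The 1 naive library stood at 9.0 and 39.0 CPM for these genes and the NestinCre EAE libraries at 80.2 to 162.1 and 245.3 to 590.0 CPM. The fitted changes are larger than these levels give because of the run term: without it they were 3.61 ± 0.76 for H2-T23 (adjusted p = 0.00897) and 3.31 ± 0.65 for H2-K1 (0.00546). The naive library shared its run with no EAE library and was linked to them through fl naive 2 and fl naive 3. The test takes the spread of that single library from the other groups. The count without the run term was 13, and without fl EAE 4 it was 7, with no share over all genes given for these fits.

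In mice that were not immunized, the genotypes were compared in the same model. The test called 0 of 100 pairs (1 higher and 0 lower at an unadjusted p under 0.05, DESeq2 0), against 0.00294% of all genes called higher and 0% lower. Granule cell B2m was 7.71 and 9.09 CPM in fl naive and 9.44 CPM in NestinCre naive, H2-D1 was 28.8, 47.8 and 44.1 CPM and Tap1 0.111, 0.200 and 0.227 CPM. The interaction, which tests whether the genotype difference differs between EAE and naive, called 0 of 100 pairs. Over all genes, 0% were called higher and 0.000735% lower at the same adjusted threshold. At an unadjusted p under 0.05, 34 member pairs were higher and 0 lower, with no share over all genes given at that threshold. DESeq2 called 1 higher. In each of these contrasts 8 of the 100 pairs had no usable estimate. Both contrasts rest on 1 NestinCre naive library, and that the genotype difference is larger in EAE than in naive mice did not pass the adjusted test in any class.

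The rest of the pathway was read from lists of genes for the same contrast of genotypes in EAE. Of 9 transcriptional regulators, 75 pairs of gene and class were tested and 24 were higher and 0 lower, against 0.7% of all tests called higher. Of the 24, Nlrc5 in Bergmann glia had under 10 UMIs in every fl EAE library. The same 0.7% is the background of the counts of the next lists. In granule cells these were Irf1 (0.123 to 1.76 CPM in fl EAE, 4.54 to 19.8 CPM in NestinCre EAE, 4.08 ± 0.64, adjusted p = 0.0223) and Nlrc5. The latter is the class I coactivator (0.328 to 1.11 against 4.18 to 47.3 CPM, 4.88 ± 0.84, adjusted p = 0.0298). Apart from fl EAE 3, the fl EAE libraries were at 0.123 to 0.346 CPM for Irf1 and 0.328 to 0.406 CPM for Nlrc5. Both genes therefore passed the filter in granule cells through the NestinCre EAE libraries, and their calls are a description. The median over the 9 regulators in granule cells was 0.31.

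The constitutive proteasome subunits, which those of the immunoproteasome replace, gave no call: for Psmb5, Psmb6 and Psmb7, 0 of 24 pairs passed edgeR's test in either direction (0 at an unadjusted p under 0.05, DESeq2 0), and the granule cell changes were -0.19 ± 0.21, -0.03 ± 0.19 and -0.14 ± 0.08. Of the other immunoproteasome and activator subunits (Psmb10, Psme1 and Psme2), 3 of 18 pairs were higher, Psme1 in mature oligodendrocytes and microglia and Psme2 in microglia. Among 6 chaperones and trimming enzymes, 1 of 57 pairs was higher, the peptidase Erap1 in mature oligodendrocytes, and Calr, the chaperone calreticulin, was 41.1 to 77.7 CPM in granule cells of fl EAE and 70.4 to 75.0 CPM in NestinCre EAE. Of 14 other class I heavy chain genes, 6 of 24 tested pairs were higher, H2-Q6 (3.79 ± 0.54, adjusted p = 0.0205) and H2-Q4 (3.57 ± 0.53, adjusted p = 0.0207) in granule cells among them. These 2 pairs had under 10 UMIs in every fl EAE library and were tested through their high group, so they are a description. Both genes are close relatives of H2-Q7, and reads may be split between them.

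Over the 112 pairs of EAE library and tested class, the genes outside the list whose log2 level was most like the mean of the members were Etv6 (Pearson's r 0.73), Lamp2 (0.69), Diaph2, Psap and Btbd9 (0.68 each), out of 344 genes tested in every class. These points share libraries and depth, and the value is a description. Whether the genotype difference itself differed between classes was examined in granule cells, mature oligodendrocytes and microglia with 30 exact two-sided permutation tests of log2(CPM + 1), in which 4 libraries against 4 cannot give a p below 0.0286. Of the differences between mature oligodendrocytes and granule cells, Tap2 (1.93), H2-D1 (1.64), Psmb9 (1.42), H2-Q7 (0.64) and B2m (0.51) reached that smallest exact p, and B2m was less changed in microglia than in granule cells (-1.31) and mature oligodendrocytes. Adding 1 CPM shrinks the differences of low genes, and the fitted changes in granule cells and mature oligodendrocytes were 3.86 and 3.79 for Psmb9, 4.38 and 4.91 for H2-Q7, 2.83 and 3.23 for B2m, 2.09 and 3.32 for Tap2, and 1.15 and 2.74 for H2-D1. H2-Q7, Psmb9 and Tap2 passed edgeR's filter in mature oligodendrocytes through the NestinCre EAE libraries. Their fitted changes there are a description and are not compared between the classes. The lowest p adjusted over the 30 tests was 0.122. At least 18 tests would have had to reach the smallest p for any to pass, and 7 did, so the adjusted values cannot show whether the classes differ.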

How the data were processed

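Nuclei were sorted by flow cytometry on Hoechst and sequenced with the 10x 3' v3.1 chemistry. The authors aligned reads with Cell Ranger (7.0.0 in the file headers of run 1, 6.0.2 in those of runs 2 and 3 and in the submitters' processing notes) to GRCm39, intronic reads included, and deposited raw UMI counts per gene and barcode for 11 libraries. How the counting used strand is not given in the sources used here.

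Nuclei with at least 200 genes (run 1) or 500 genes (runs 2 and 3) and under 5% mitochondrial UMIs were kept, and those with the highest Scrublet scores were removed as doublets at 0.8% per 1000 barcodes, which left 159202 of 189709 barcodes. Nuclei were clustered with scanpy 1.11.5 and leidenalg 0.10.2 (3000 variable genes, 40 components, 20 neighbours, Harmony over libraries, Leiden resolutions 2 and 6) without 197 genes, the members and interferon-responsive genes among them. A cluster of at least 20 nuclei took the name of the class with at least 3 markers at 20 CPM or more and 2 times the median cluster. Clusters with over 40% of doublet-scored nuclei were left out. Classes are rebuilt from markers and may differ from those of the study.

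UMIs were summed per library and class, and 14 classes with at least 10 nuclei in every library were tested with edgeR 4.0.16 (R 4.3.3, quasi-likelihood, TMM, filterByExpr, sequencing run as covariate, Benjamini-Hochberg over all genes of a class, threshold 0.05). The genotype contrast in EAE used the 8 EAE libraries, and the other contrasts used all 11. Errors of fold changes are standard errors, and intervals are 95% normal intervals that cover the spread between libraries. The study's methods give 4 mice per genotype in EAE. For the naive libraries the sources used here do not state separate mice, and p-values there measure only the spread between libraries. The study's reporting summary describes 1 floxed naive sample, sequenced with EAE samples, as an internal control for reproducibility between experiments. Limits for a count of 0 are 3 counts of the class's UMIs and cover counting error only. DESeq2 1.42.0 (the study's tool for summed counts), RLE factors, no filter, no run term, a replicate block, run 1 alone, kept doublets, an upper limit of 6000 UMIs, nuclei without tracer UMIs and leaving out each library were the alternatives. The exact permutation tests between classes were added after the data were seen.

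The members, gene lists and tests were chosen with earlier results of these data known. All members are described, with full statistics for pairs called in EAE and for granule cells, mature oligodendrocytes and microglia. Pathway genes named first are those with the lowest adjusted p in granule cells, and calls in the other classes, Calr and the levels of T or NK cells were named after their values were seen. Values of 1 gene of the pathway lists are not reported here. The genes most like the members are the 5 with the highest correlation. The EAE replicates sequenced in run 2 carry no number in their titles and were numbered 4.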

Additional observations from a re-analysis of the deposited data

Results flagged for a closer look

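Of 60 groups of 4 libraries (the 10 members in granule cells, mature oligodendrocytes and microglia of both genotypes in EAE), 13 held a library whose gap to its nearest neighbour was, as a share of the range, above the 95% limit of Dixon's test, where chance gives about 1 in 20. In 11 of the 13 the library was fl EAE 3, highest of its group. In granule cells it stood at 7.99 CPM for H2-K1, 4.46 CPM for H2-T23, 1.49 CPM for Tap1, 4.09 CPM for Psmb8 and 1.44 CPM for Psmb9, and in mature oligodendrocytes at 21.3 CPM for H2-K1, 0.655 CPM for H2-Q7, 7.70 CPM for Tap1, 10.3 CPM for Tap2, 8.52 CPM for Psmb8 and 4.75 CPM for Psmb9. The other flags were Tap2 in granule cells of NestinCre EAE 1 (17.3 CPM) and Tap1 in microglia of NestinCre EAE 4 (124.5 CPM). For H2-Q7 the other 3 libraries were at 0, which allows a level above the 0.655 CPM, so this flag says nothing; 10 of the other 12 were in fl EAE 3. The 60 groups share libraries, and the cause was not tested.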

How the results depend on the processing

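For the genotype contrast in EAE, 38 pairs were called in the reported fit, and no alternative called a member lower or reversed a pair (0 of 787 comparisons of a pair and a setting). Of the 38 pairs, 21 were called in every setting that fitted them. Without a filter 77 pairs were called (140 instead of 61 tested), with DESeq2 53, and 28 to 54 when 1 library was left out (28 without fl EAE 1, 54 without fl EAE 3). Apart from the fit without tracer nuclei, no share over all genes is given for the alternatives. Their counts here and below therefore show only how the member calls move between fits. In granule cells the 7 calls became 2 with the replicate block and 0 to 9 when 1 library was left out. In mature oligodendrocytes the 5 calls became 9 without the run term, 10 without a filter, 9 with the replicate block, 0 in run 1 alone, 10 without nuclei of 6000 or more UMIs, 9 without nuclei with a tracer UMI, and 0 to 10 when 1 library was left out. In microglia 8 or 9 members were called in every setting. The disease contrast in fl mice, 0 in the reported fit, gave 0 to 2 (2 without fl EAE 4), and that in NestinCre mice, also 0, gave 13 without the run term, 3 with DESeq2, 1 with RLE factors, 12 without a filter, 3 with doublets kept and 0 to 7 when 1 library was left out. The interaction gave 1 with DESeq2. The cause of these changes was not tested. Neither disease contrast could be fitted without fl naive 2, and that in NestinCre mice also not without fl naive 3 or NestinCre naive 2. Replicate numbers did not pair the libraries (same-numbered correlations of granule cell deviations of 0.08, -0.07 and -0.09), and with the block 35 pairs were called in all, 31 of them among the 38.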
